A study of Mus musculus with 10 samples.

Results

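Lung tumors grown from cells of mouse mammary sarcomatoid carcinomas were set against sarcomatoid carcinomas of the mammary gland. The comparison used 5 of the 10 tumors of the series, 1 array each, chosen by the site and number on their labels: lung tumors 323 and 307, labelled as transplanted, against mammary tumors 323, 307 and 594. Tumors 323 and 307 are labelled sarcomatoid adenocarcinoma at both sites, and 594 is labelled sarcomatoid carcinoma. The methods of the study describe the group as a Pik3caH1047R;Trp53R270H;MMTV-Cre primary tumor, a Pik3caH1047R;MMTV-Cre primary tumor with a spontaneous Trp53R245H mutation, a Trp53R270H;MMTV-Cre primary tumor, and lung tumors that arose after cell lines of the first and the second were injected into the tail vein. By that list tumor 594, which has no lung partner, is the Trp53R270H;MMTV-Cre tumor, and Pik3caH1047R is not in its genotype. Which of the numbers 323 and 307 carried which genotype was not given in the labels. Every lung tumor thus passed through culture as a cell line before it grew in a recipient, and MMTV-Cre acts mainly in mammary epithelium, so site, culture and recipient change together. The 5 mammary adenocarcinomas (Pik3caH1047R;Trp53R270H;MMTV-Cre) were outside the contrast and added only to the estimate of the spread. Compound mutant mice were on a C57BL/6 background, and the study names syngeneic C57BL/6 mice as recipients in a later injection experiment. Whether both lung tumors of the arrays grew in such mice was not given.

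Sarcomatoid (spindle cell) carcinoma is a carcinoma in which part or all of the cells have left the glandular form for a spindle shape. Epithelial cells are held together by E-cadherin, claudins and desmosomes, and a set of transcription factors and splicing regulators (Grhl2, Elf5, Ehf, Esrp1, Esrp2) keeps that state, while Snai1, Zeb1, Zeb2 and Twist1 repress it through CACCTG sequences (E-boxes) in the promoters of epithelial genes. A tumor sampled whole also holds macrophages, lymphocytes, vessels, fat and muscle of its site, and in such samples fewer cells of a type and less RNA per cell cannot be told apart.

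Values are log2 ratios of each tumor over a common reference from the normalized table that the authors deposited, so that a difference of 1 is a factor of 2. The labels give Cy3 (green) as the dye of the tumor RNA. The green signals varied less between arrays than the red ones (mean SD 0.737 against 0.979 of the log2 signal), so red was read as tumor and green as reference. Were the label right, every sign below would turn. By the reading used, the mean of 22 epithelial junction genes was 2.97 to 3.53 in 4 of the 5 adenocarcinomas and -0.41 in adenocarcinoma 470, against 1.29 to 2.12 in the mammary sarcomatoid and -1.31 and -0.64 in the lung tumors. Between 66.6% and 77.6% of probes were well above background in red on the 5 arrays. The arrays fall into 3 scan batches by the extraction protocol in the file headers: mammary 323 alone in the first, mammary 307 and 594 with 2 adenocarcinomas in the second, and both lung tumors with 3 adenocarcinomas in the third. No scan batch held lung and mammary sarcomatoid tumors together, so no within-batch difference can be given and batch and site could be separated only through the adenocarcinomas. Dim probes also differed with batch: on the mammary 307 and 594 arrays, 80.1% and 69.2% of probes not well above background lay within 0.05 of a single value (0.10 and 0.11), against 4.74% and 5.04% around the most common value on the lung arrays.

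The promoters of genes that were lower in both lung tumors are shown first, and were chosen among those that carry the E-boxes read by the repressors above. Each is the 250 bases before a start of the gene (RefSeq sequence), 5′ to 3′. CACCTG, or CAGGTG for the same motif on the other strand, is in capitals. Where a gene had several starts, the one with the most motifs was taken. Cldn7 headed the genes lower in both pairs, Serinc2 passed the test, Epcam is a defining epithelial marker, and Elf5 had the largest difference on the epithelial lists.
Cldn7 promoter (GRCm38.p6, chr11:69965171-69965420, plus strand): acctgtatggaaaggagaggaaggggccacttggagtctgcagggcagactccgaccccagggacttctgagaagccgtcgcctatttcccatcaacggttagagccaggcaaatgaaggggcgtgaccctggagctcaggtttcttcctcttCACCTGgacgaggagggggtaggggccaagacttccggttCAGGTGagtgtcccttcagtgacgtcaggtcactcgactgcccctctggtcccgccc
Serinc2 promoter (GRCm38.p6, chr4:130275587-130275836, minus strand): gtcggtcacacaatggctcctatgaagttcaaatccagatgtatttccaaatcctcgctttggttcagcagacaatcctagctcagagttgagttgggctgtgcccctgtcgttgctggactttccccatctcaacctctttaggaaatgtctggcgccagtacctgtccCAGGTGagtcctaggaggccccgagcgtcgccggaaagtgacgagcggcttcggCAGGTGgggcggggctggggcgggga
Epcam promoter (GRCm38.p6, chr17:87635729-87635978, plus strand): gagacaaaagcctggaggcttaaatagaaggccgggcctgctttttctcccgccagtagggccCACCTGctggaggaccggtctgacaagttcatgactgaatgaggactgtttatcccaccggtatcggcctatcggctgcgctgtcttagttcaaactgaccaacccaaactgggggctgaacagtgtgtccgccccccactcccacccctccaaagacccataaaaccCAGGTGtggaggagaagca
Elf5 promoter (GRCm38.p6, chr2:103411848-103412097, plus strand): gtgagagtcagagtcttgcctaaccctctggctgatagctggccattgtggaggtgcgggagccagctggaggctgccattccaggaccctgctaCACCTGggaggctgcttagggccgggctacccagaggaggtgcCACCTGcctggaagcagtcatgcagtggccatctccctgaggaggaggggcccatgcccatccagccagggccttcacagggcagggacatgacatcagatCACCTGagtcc
Of the 46 epithelial genes measured from 3 lists, 27 matched the promoter table, and 17 of them (63.0%) held the motif before at least 1 of their starts. Over all 27025 genes of the table the share was 19.4%. The motif is a match of letters, and binding was not measured. These shares were not compared by a test, and the list genes were chosen, not drawn from the table. Of the repressors, Snai1 differed by 0.44, Twist1 by 0.34, Zeb1 by 0.40 and Zeb2 by -0.50 between lung and mammary tumors. With scan batch as a term these differences were 1.07, 0.27, 1.88 and 1.60, or 0.10, -0.59, 0.81 and 0.59 without adenocarcinoma 470. Whether the repressors lowered these genes was not tested.

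The first question was which single genes separate the lung from the mammary tumors. At an adjusted p below 0.05 (limma, over all 40196 probes) 6 probes of 5 genes fell in the lung tumors, 0.0149% of those tested, and 4 probes rose, 0.00995%. An unadjusted p below 0.05 was reached by 4294 probes. The genes that fell were Spint1, Serinc2, Adamts8, Urah and Gna14, and those that rose were Pcdh9, Pcdh20, Pdxdc1 and the transcript AK037972. In the mm7 coordinates of the array files, the Spint1 probe lies at chr2:118990042-118990101, that of Serinc2 at chr4:129698226-129698285, that of Gna14 at chr19:16310411-16310470 and that of Pcdh20 at chr14:83196239-83196298.

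Spint1 encodes HAI-1, an inhibitor that holds the membrane proteases matriptase and hepsin in check in epithelia. Its log2 ratio was 3.95, 3.68 and 4.19 in mammary tumors 323, 307 and 594, and -0.20 and 1.30 in lung tumors 323 and 307. The groups did not overlap, and the 5 adenocarcinomas, between 3.87 and 4.37, lay with the mammary tumors. Spint1 fell by 3.39 (SE 0.43, limma adjusted p 0.0475), and its second probe, which did not pass, differed by -2.83. Serinc2, a member of the serine incorporator family, was at 2.06, 2.78 and 2.54 in the mammary tumors and at -1.30 and -1.20 in the lung tumors. The lung tumors were nearly equal to each other, and Serinc2 fell by 3.71 (SE 0.38, limma adjusted p 0.0226).

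Adamts8 encodes a secreted metalloprotease of the family that cleaves matrix proteoglycans. Its first probe was at 7.23, 7.12 and 7.33 in the mammary tumors and at 1.82 and 2.37 in the lung tumors. The mammary values lay close together, with the adenocarcinomas between 4.28 and 6.44, and Adamts8 fell by 5.13 (SE 0.67, limma adjusted p 0.0483). The adenocarcinomas averaged 6.28 in the second scan batch and 4.31 in the third, the batch of the lung tumors. The second Adamts8 probe fell by 4.97 (limma adjusted p 0.0226). On that probe both lung arrays were not well above background, and by red-channel signal after loess and between-array scaling it was at least 8.03-fold lower. Such bounds set the mammary mean against the lung mean, with each lung array at its own signal or, where that is lower, at the lowest signal of any probe above background on that array. Another Adamts8 probe gave -0.75. Urah (5-hydroxyisourate hydrolase, of urate breakdown) was at 3.69, 3.81 and 3.07 in the mammary tumors and at 0.10 and -1.75 in the lung tumors, and fell by 4.34 (SE 0.57, limma adjusted p 0.0483). Gna14, a G protein alpha subunit, was at 5.11, 4.22 and 4.34 against 0.86 and 1.63, and fell by 3.31 (SE 0.43, limma adjusted p 0.0475). For both genes the adenocarcinomas (3.66 to 5.07 for Urah and 3.59 to 4.47 for Gna14) again lay with the mammary sarcomatoid tumors and above both lung tumors.

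Pcdh9 and Pcdh20 are protocadherins, adhesion molecules best known from the brain. Pcdh9 was at -3.12, -4.02 and -3.63 in the mammary tumors and at -0.31 and 0.08 in the lung tumors, and rose by 3.47 (SE 0.42, limma adjusted p 0.0388). Of its 4 other probes none passed, and they gave from 0.15 to 4.87. Pdxdc1, a pyridoxal-dependent decarboxylase-like gene, was at -5.01, -4.01 and -4.16 against -1.23 and -1.30, and rose by 3.13 (SE 0.36, limma adjusted p 0.0289). Its second probe gave 0.04, so the rise was seen by 1 of its 2 probes. Pcdh20 was at 0.70, 0.07 and 0.66 against 4.31 and 4.91, and rose by 4.14 (SE 0.43, limma adjusted p 0.0226). Its mean red signal was 7.18 (log2) in the lung and 6.56 in the mammary tumors, and in ratios recomputed from the scanner files Pcdh20 differed by 0.49 and no longer passed. AK037972 behaved in the same way, with a rise of 3.60 that was 0.72 (limma adjusted p 0.384) when recomputed. Among the called probes, only those of Spint1 and Pdxdc1 still passed in the recomputed ratios. Urah, Gna14, Serinc2, Pcdh9 and both Adamts8 probes kept their direction but no longer passed. Gna14 was then at -1.63, the second Adamts8 probe at -2.78, Serinc2 at -2.89 and Pcdh9 at 2.33.

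**Figure D1:**
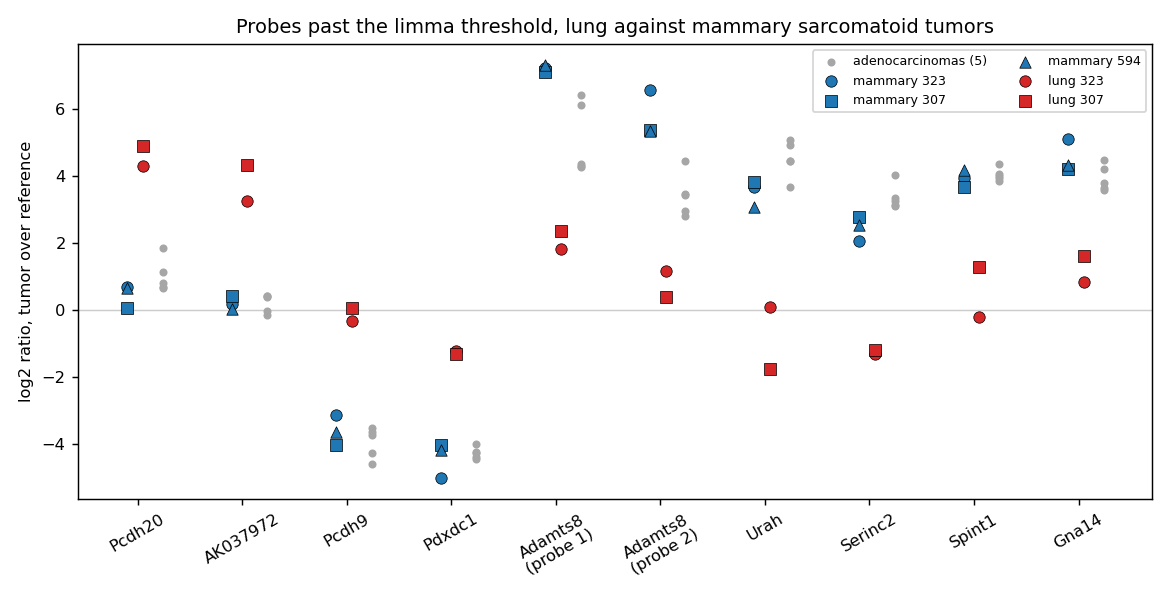
Log2 ratio of tumor over reference for the 10 probes past the limma threshold, 1 point per tumor, with the 3 mammary sarcomatoid tumors in blue, the 2 lung tumors in red and the 5 adenocarcinomas in grey. The lung tumors stand apart from all 3 mammary tumors on every probe, for example at -1.30 and -1.20 against 2.06 to 2.78 for Serinc2.

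These calls depend on few arrays. No probe passed with scan batch as a term (smallest limma adjusted p 0.227) or in the paired fit, where the tumor number entered as a replicate block over 2 pairs (smallest adjusted p 0.0895), and leaving out single arrays gave between 0 and 84 calls. Without adenocarcinoma 470 there were 84 calls, 73 of them lower, and without mammary tumor 323, mammary tumor 307 or adenocarcinoma 17 there were 0. With the batch term the difference was -3.57 for Spint1, -3.39 for Serinc2, 4.26 for Pcdh9 and 2.65 for Pdxdc1. The first and second Adamts8 probes were then at -3.15 and -3.71. Urah was at -5.03, Gna14 at -3.06, Pcdh20 at 3.66 and AK037972 at 3.07.

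The second question was which genes moved alike in both pairs, each a lung tumor and the mammary tumor of the same number. These differences rest on 1 array per side and have no test. In pair 323 the lung tumor was past 1 above its mammary tumor on 5973 probes and past 1 below on 5843, and in pair 307 on 4871 and 4545. In both pairs at once, 1591 probes were higher, 3.96% of all probes, and 1753 were lower, 4.36%. Fewer probes went opposite ways past 1, namely 358 that were higher in pair 323 and lower in pair 307, and 525 the other way. Across probes, which are not independent and whose 4 arrays share a batch on the lung side, the differences of the 2 pairs correlated at r = 0.330, and at r = 0.364 over the 24565 probes well above background on all 4 arrays. Mammary tumor 594, which has no lung partner, reduced the set: 714 of the higher probes (44.9%) and 913 of the lower ones (52.1%) were also past 1 from it in both lung tumors.

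**Figure D2:**
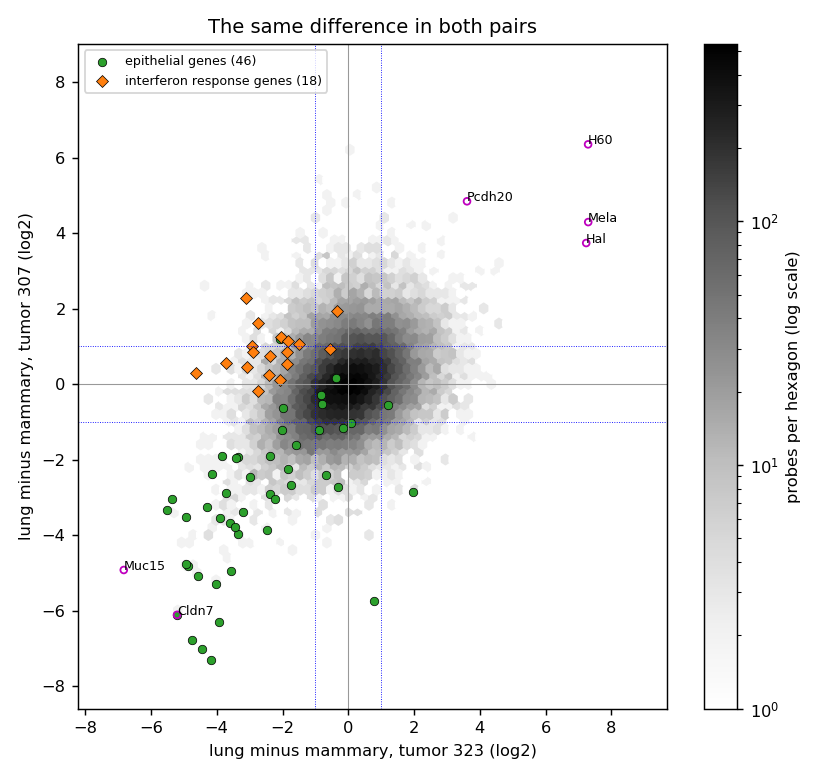
Lung minus mammary log2 difference in pair 323 (horizontal) against pair 307 (vertical), with all probes as hexagons shaded by number on a log scale, 46 epithelial genes in green, 18 interferon response genes in orange and several named genes circled. Dotted lines mark a difference of 1 in either direction; 33 of the 46 epithelial genes lie past -1 in both pairs, while 17 of the 18 interferon genes are above 0 in pair 307 and none is in pair 323.

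Epithelial genes were lower in both lung tumors, across 3 lists. Of the 22 junction genes all 22 were lower, with a median difference of -2.69, and 16 were past -1 in both pairs. Of 18 epithelial regulators and protease-control genes 17 were lower, with a median of -2.95, and 13 were past -1 in both pairs. All 6 simple keratins were lower, with a median of -2.76, and 4 were past -1 in both pairs. Over all probes the median difference was 0.03 and 48.4% were lower, and 16.9% of all probes had both lung tumors below all 3 mammary tumors, against 39 of the 46 epithelial genes. Only Spint1 and Serinc2 of the 46 passed the limma test. List members, Serinc2 among them, were chosen with earlier results of these data known. With ratios recomputed from the scanner files the 3 medians were -1.48, -1.74 and -2.60. With the scan batch term they were -3.48, -4.13 and -5.40, and without adenocarcinoma 470 in that fit, an alternative added after the data were seen, they were -1.64, -2.37 and -3.12. The second scan batch held 2 adenocarcinomas that differed in epithelial genes: the mean of the junction list was 3.53 in tumor 105 and -0.41 in tumor 470, and that of the simple keratins 1.07 and -2.36. In the third, the batch of the lung tumors, the junction mean over 3 adenocarcinomas was 3.04.

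Among the junction genes, Cldn7, a tight junction claudin, was at 2.31, 2.45 and 0.59 in mammary tumors 323, 307 and 594 and at -2.90 and -3.66 in lung tumors 323 and 307. The difference within pairs was -5.21 and -6.11, and the limma difference was -5.06 (SE 1.49, adjusted p 0.308). Epcam, an epithelial adhesion molecule, was at 1.48, 1.38 and 0.07 against -2.46 and -4.91. For both genes mammary tumor 594 was the nearest of the mammary tumors to the lung tumors, and the groups did not overlap. E-cadherin (Cdh1) was at 6.49, 4.44 and 4.38 against 2.20 and 1.17, and remained well above background on both lung arrays, as did Cldn3, at 4.21, 4.73 and 4.02 against 0.65 and -0.21. By contrast 8 of the 46 epithelial genes, each by 1 probe, were well above background on all 3 mammary arrays and neither lung array. The share of all probes with this pattern is not given here. Over all probes, 66.6% and 67.2% were well above background on lung arrays 323 and 307. On mammary arrays 323, 307 and 594 the shares were 72.3%, 77.2% and 77.6%. Among the 8 genes were Cldn8, Ocln (occludin), Crb3 (an apical polarity protein), Marveld3 and Dsg2 (a desmosomal cadherin). Marveld3, a tricellular junction protein family member, was at least 4.42-fold lower by its red signal on that probe. A second Marveld3 probe differed by -1.63 and was well above background in lung tumor 323. The smallest difference of the list was that of Cgn (cingulin), at -0.22.

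Among the regulators, Elf5, the transcription factor of the alveolar lineage, was at 7.19, 6.16 and 6.39 in the mammary tumors and at 2.44 and -0.62 in the lung tumors, a difference of -5.68 (limma adjusted p 0.138). Grhl2 was at 3.58, 2.40 and 1.53 against -0.98 and -2.67, and the splicing regulators Esrp1 and Esrp2 differed by -3.76 and -4.04. Each of these 4 genes had both lung tumors below all mammary tumors. A probe of Ehf, an Ets factor of epithelia, was at 6.37, 5.22 and 2.84 against 1.25 and -0.86. On this probe Ehf was not well above background in the lung, and was at least 6.50-fold lower. The 2 other Ehf probes differed by -2.95 and -2.49, and both were well above background in lung tumor 323. The probe at -2.95 stood for Ehf on the list. The 1 gene of the list that was higher was Klf5, at 0.44, with 1.20 in pair 323 and -0.55 in pair 307. Of the keratins of simple epithelia, Krt8 was at -0.89, -0.69 and -1.49 against -4.08 and -4.09, and Krt18 at -0.58, -1.24 and -2.02 against -4.03 and -5.02.

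**Figure D3:**
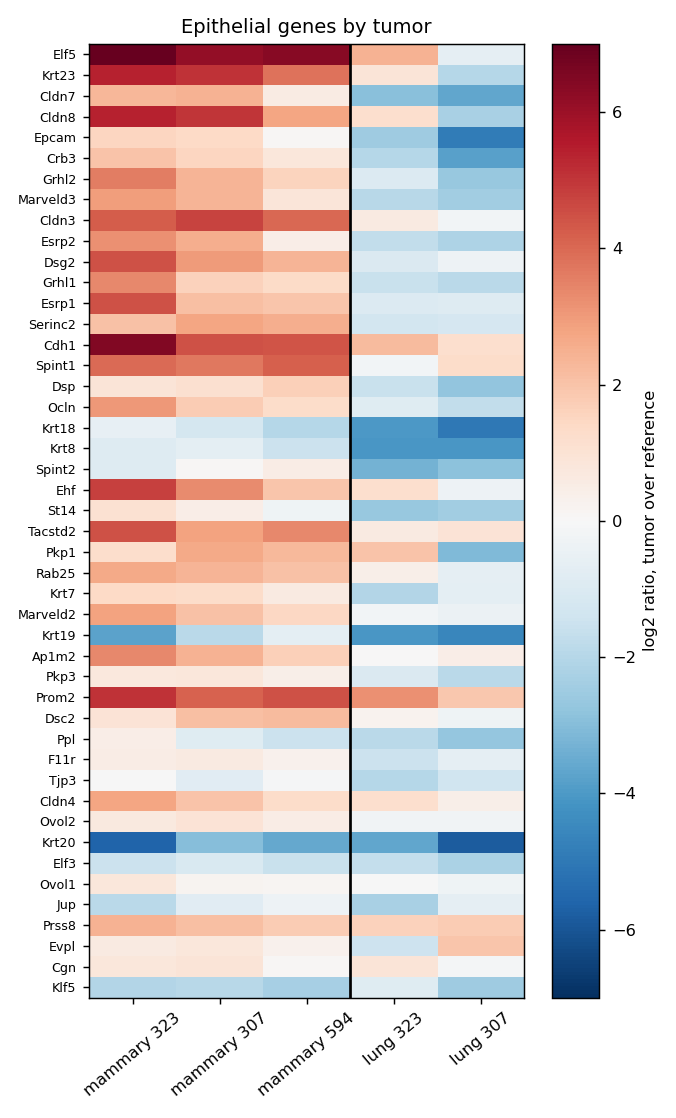
Log2 ratio of tumor over reference (colour) for 46 epithelial genes (rows, ordered by the lung minus mammary difference) in the 3 mammary and 2 lung sarcomatoid tumors (columns). The rows run from Elf5 (difference -5.68) to Klf5 (0.44), and the lung columns are lower than the mammary columns in most rows.

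Basal and myoepithelial genes were lower too, by less. All 18 were lower, with a median of -1.48, and 8 were past -1 in both pairs. Krt5 was at 1.32, 2.20 and 3.81 in the mammary tumors and at 0.54 and -0.14 in the lung tumors, and Trp63 (p63, the basal regulator) at 3.72, 0.54 and 2.40 against -2.22 and -0.82. Krt14 split by pair, with 0.74 in pair 323 and -3.77 in pair 307. The largest difference was that of Cnn1 (calponin, a contractile protein), at -4.90, and the smallest that of Mylk, at -0.14. Adding the scan batch term gave a list median of -1.27, with 16 of 18 lower. That median was -2.35 without adenocarcinoma 105 and -0.42 without 470. Trp63 went from -3.74 to -0.13 with this term (1.92 without 470), whereas Krt5 went from -2.24 to -2.19 (-1.20 without 470). Milk and hormone genes were mixed, with 13 of 18 lower and a median of -0.41. The casein Csn1s1 was at 2.40, 6.75 and 4.30 in the mammary tumors and at 0.29 and -0.34 in the lung tumors, where it was not well above background, whereas Lalba differed by 0.90.

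Other genes that were lower in both pairs and did not overlap were Muc15, Pipox, Zfp612 and H2-Q1. Muc15, a membrane mucin, was at 7.84, 5.45 and 5.31 against 1.01 and 0.53. On this probe it was not well above background in either lung tumor and was at least 32.7-fold lower by its red signal. That was the highest bound among the named genes. A second Muc15 probe differed by -3.37 and was well above background in lung tumor 323. Pipox (pipecolic acid oxidase) and Zfp612 (a zinc finger gene) were at least 2.90-fold and 4.15-fold lower. On both the nearest mammary tumor was 594, at -1.14 and -0.28. A second Zfp612 probe gave -0.95 and was well above background on the mammary 307 array alone. H2-Q1 is a nonclassical MHC class I gene of a family with near-identical copies. It was at 4.98, 4.76 and 3.08 against -1.07 and -0.40, while its 2 other probes gave 0.46 and -0.04, so its difference is uncertain. None of these 4 genes passed the limma test (adjusted p between 0.148 and 0.462).

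On the higher side the largest shared differences were those of H60 and Mela. H60 encodes a ligand of the NKG2D receptor of NK and T cells and a minor histocompatibility antigen that C57BL/6 mice are known to lack. Its log2 ratio was -4.96, -5.00 and -1.33 in mammary tumors 323, 307 and 594 and 2.33 and 1.35 in lung tumors 323 and 307. The difference was 7.29 within pair 323 and 6.35 within pair 307, and 5.61 over the groups (SE 0.98, limma adjusted p 0.138). A second H60 probe gave 2.76, and the H60 family holds several related genes whose signals 1 probe may not separate. The adenocarcinomas lay between -6.41 and -4.95, below both lung tumors in either scan batch. Mela, a melanoma antigen gene derived from an endogenous retrovirus, was at -5.85, -6.63 and -6.97 against 1.44 and -2.34, a difference of 6.04 (SE 0.95, limma adjusted p 0.113). Its adenocarcinoma values, -7.04 to -5.34, also lay below both lung tumors, and the difference recomputed from the scanner files was 6.09.

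Hal (histidine ammonia-lyase) was at -2.84, -2.33 and -2.51 against 4.40 and 1.41. Kcnmb4, a potassium channel subunit, was at -2.58, -1.72 and -0.01 against 2.65 and 2.24. Tumor 594 was again the mammary tumor nearest the lung tumors. The transcription factors Bhlhe22 and Pax9 were also among them. Bhlhe22 separated the groups barely, since mammary tumor 594 was at 6.11 and the lung tumors at 6.30 and 6.18. Pax9 was at -1.76, -2.22 and -0.91 against 1.47 and 2.18, and well above background on only 1 mammary array. Adenocarcinoma 85, at 3.05, lay above both lung tumors for Pax9, and the other adenocarcinomas lay below them. The Pax9 difference of 3.45 was 1.33 when recomputed from the scanner files. None of Hal, Kcnmb4, Bhlhe22 and Pax9 passed the limma test (adjusted p between 0.138 and 0.543). Across all probes 17.5% had both lung tumors above all 3 mammary tumors.

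Mesenchymal genes had different medians in the pairs, a difference that was not tested. The list of 20 had a median of -0.08 in pair 323 (11 of 20 lower) and of 1.17 in pair 307 (16 of 20 higher). Over the groups the median was 0.33, with 12 higher, and 3 were past 1 in both pairs and none past -1. Vim (vimentin) lay between -1.48 and -0.47 in the mammary tumors and was at -0.63 and 0.20 in the lung tumors, which overlap. Cdh2 (N-cadherin) was past 1 in both pairs, at 1.17 and 3.73, but mammary tumor 594, at 1.77, lay above both lung tumors. Of the repressors of the epithelial state, Snai1 differed by 0.44, Twist1 by 0.34, Zeb1 by 0.40 and Zeb2 by -0.50. S100a4, a calcium-binding protein that the study followed further, had the largest difference of the list, 1.93 (limma adjusted p 0.595), at 0.78, -2.67 and 0.34 against 2.11 and 0.72. The lowest was that of Tnc, a matrix glycoprotein, at -1.65. With the scan batch term the median of the list was 1.65, and 0.67 without adenocarcinoma 470. Snai1, Twist1, Zeb1 and Zeb2 differed by 1.07, 0.27, 1.88 and 1.60 with that term, or by 0.10, -0.59, 0.81 and 0.59 without 470.

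The matrix genes differed in opposite directions in the pairs. The 20 collagen and matrix genes had a median of 0.01 over the groups, of -0.81 in pair 323 (14 of 20 lower) and of 1.39 in pair 307 (16 of 20 higher). Adding the scan batch term moved the median over the groups to 1.81, with 4 of 20 lower. It was then 2.63 without adenocarcinoma 105 and 0.98 without 470. Col1a1, the main fibrillar collagen, was at -3.88 in mammary and -4.57 in lung tumor 323, and at -1.40 in mammary and 1.97 in lung tumor 307. Bgn (biglycan) had the largest difference, 1.84, with 5.40 in pair 307 and -0.93 in pair 323. Lum (lumican) had the lowest, -2.81, and was lower in both pairs. By the rule for genes that moved oppositely, Col11a1 (-3.46 in pair 323 and 4.28 in pair 307), Col8a2 (-3.23 and 4.23) and Fndc1 (-3.97 and 3.75), which encode matrix proteins, were among the 4 largest. In the other order came Clca3a1 (4.41 and -5.06, of a family with near-identical copies), Cfd (adipsin; 4.23 and -5.61), Ngfr (3.94 and -5.15) and Adipoq (adiponectin; 3.09 and -3.95).

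Adipsin and adiponectin are products of fat cells, and the whole adipocyte list differed with the pair. Of its 13 genes 12 were higher in lung than in mammary tumor 323 (median 1.17) and 6 were higher in pair 307 (median -0.36). The mean of the list was -0.04, 1.32 and 2.22 in mammary tumors 323, 307 and 594 and 1.30 and 0.45 in the lung tumors, and it was 2.69 and 0.59 in the adenocarcinomas of the second and the third scan batch. Skeletal muscle genes were higher in both pairs (14 of 15 in each, medians 2.40 and 1.47, 9 past 1 in both). Mammary tumor 594 had the highest list mean, at 2.88, against -1.26 and -0.88 in mammary tumors 323 and 307 and 0.82 and 0.51 in the lung tumors, so that no muscle gene had both lung tumors above all 3 mammary tumors. Acta1 and Ckm, the defining muscle genes, were at 1.19 and 3.59 in tumor 594. Over the groups the muscle median was 0.60, and it was -0.34 without mammary tumor 323 and -0.03 without 307, and was higher without 594. In the adenocarcinomas the muscle mean was 4.37 in the second scan batch and -0.81 in the third. Adding the scan batch term moved the muscle median to 5.01 (4.57 without adenocarcinoma 105, 5.43 without 470). The adipocyte median over the groups moved from -0.26 to 1.27 (0.35 without 105, 2.10 without 470). The part of fat and muscle in the other differences was not tested.

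Lung epithelium was looked for as a sign of host lung in the lung tumors. Its 16 genes had a median difference of -0.05, with 7 higher and 9 lower. The surfactant gene Sftpc was at -0.01 in lung tumor 323 and at 2.48 in lung tumor 307, well above background in 1 of the 2, against -0.82, 0.12 and 0.05 in the mammary tumors. Sftpb was not well above background in either lung tumor, at 0.20 and 0.45, nor were Sftpa1 and Nkx2-1, the regulator of lung epithelial identity. The club cell secretoglobin Scgb1a1 was at 0.88 and 0.38 against -0.82, 0.13 and 0.27, and Ager, of alveolar type I cells, at -0.31 and 1.09 against -0.57, -0.01 and 0.28. The highest difference was that of Scgb3a1, 1.55, and the lowest that of Aqp5, a water channel of glandular epithelia, -3.97. The 11 lung mesenchyme genes had a median of -0.07, from Hhip at 2.76 to Wnt2 at -1.88. Among them Tbx4 and Fgf10 were above background in no sarcomatoid tumor. The 21 Hox genes had a median of -0.44, from 1.31 for Hoxb8 to -2.05 for Hoxc6. With the scan batch term the medians were -0.15 for lung epithelium, 0.98 for lung mesenchyme and 0.69 for Hox genes. Without adenocarcinoma 470 they were 0.09, 0.67 and 0.32.

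Vessel and myeloid genes were measured above background at both sites. The endothelial list had a median of -0.51 (16 of 20 lower), with Pecam1 at 0.22, Cdh5 at -0.54 and Cldn5 at -0.53, and ran from Ptprb (1.34) to Vwf (-2.38), von Willebrand factor. The macrophage list had a median of -0.27 (10 of 15 lower), down to -1.15 for Mrc1, with Csf1r at 0.74 and Adgre1 at -0.95. The genes of alveolar macrophages, the resident macrophages of the lung, had a median of -0.44 over 6 genes, Marco was at 0.18 and -0.22 in the lung tumors against 0.23, 0.06 and 0.84, and the lowest was Itgax (CD11c) at -2.54. Chil3 and Siglecf differed by 1.14 and -0.37. Neutrophil genes had a median of 0.90 (7 of 10 higher) and 0.10 in the ratios recomputed from the scanner files, from Mmp9 (2.36) to Il1b (-2.43), with S100a8 at 0.34. With the scan batch term the medians were 0.05 for endothelium, 1.15 for macrophages, 0.50 for alveolar macrophages and 2.25 for neutrophils. Without adenocarcinoma 470 they were -0.08, 0.66, 0.67 and 1.24.

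MHC class II genes, which present antigen to CD4 T cells, were lower in both lung tumors. This group of 7 within the antigen presentation list was set apart after its values were seen. All 7 had both lung tumors below all 3 mammary tumors, with a median difference of -2.36, where 16.9% of all probes did so. Cd74, the invariant chain, was at 2.13, 2.17 and 2.52 against -0.30 and 0.13, and H2-Eb1 at 4.70, 4.89 and 4.78 against 2.19 and 2.52. H2-Aa had the lowest difference of the list, -2.94. Ciita, the regulator of class II genes, differed by -1.28. In the adenocarcinomas Cd74 was at 2.17 on average in the second scan batch and at 0.99 in the third, and with the batch term the differences of Cd74, H2-Eb1 and H2-Aa were -1.26, -1.12 and -0.98. The batch term left H2-DMa at 0.14 (-0.14 without adenocarcinoma 470) and the whole list of 14 at a median of 0.21. The 7 class I and peptide-loading genes of the list had a median of 0.05, and the highest of the 14 was Tapbp, at 0.75. None of the 14 passed the limma test.

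Among T and NK cell genes the chains of the T cell receptor complex and CD8 were mostly lower (5 of 6), and 5 cytolytic and NK genes were divided, 3 higher and 2 lower. Both groups were set apart after their values were seen. The list's median was -0.72, with 14 of 20 lower. Cd3d, a chain of the T cell receptor complex, was at 3.86, 2.81 and 3.03 in the mammary tumors and at -1.67 and -0.17 in the lung tumors, a difference of -4.15, the lowest of the list. Cd8a was at 2.87, 2.35 and 4.42 against 0.90 and 0.59 and was not well above background in the lung, while Cd3e and Cd4 differed by -0.55 and 0.63. The 3 cytolytic and NK genes that were higher were Gzma (granzyme A) at 1.10, 0.14 and 2.03 against 3.05 and 3.29, Prf1 (perforin) at 1.38, 0.49 and 1.11 against 2.65 and 2.39, and Ncr1 (NKp46, which marks NK cells) at 0.52, 0.11 and 0.76 against 2.38 and 2.06. Each of these 3 was past 1 in both pairs, as 3.96% of all probes were, and did not overlap, as 17.5% did not in that direction. Gzmb and Nkg7, also cytolytic, differed by -0.88 and -0.97 and did not overlap in the other direction. Gzma had the highest difference of the list, 2.08 (limma adjusted p 0.485), and Ncr1 differed by 1.76 (adjusted p 0.308). Cd3d averaged 2.78 in the adenocarcinomas of the second scan batch and 0.15 in those of the third. With the batch term the list median was 0.07, with 9 of 20 lower, and Cd3d differed by -1.22. Gzma, Prf1 and Ncr1 then differed by 3.56, 3.20 and 2.52, or by 2.15, 2.63 and 1.97 without adenocarcinoma 470. Gzmb and Nkg7 changed sign with that term, to 0.84 and 1.53, or to 0.04 and 1.48 without 470. B cell genes had a median of -0.50, from Blk (0.50) to Tnfrsf13c (-1.54), with Ms4a1 at -1.53, and a median of 0.35 with the batch term (0.91 without adenocarcinoma 470, -0.13 without 105).

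Interferon response genes, which cells induce on sensing virus or cytokine, differed in opposite directions in the pairs. All 18 genes were lower in lung than in mammary tumor 323, with a median of -2.39, and 17 of 18 were higher in lung than in mammary tumor 307, with a median of 0.85. Ifit1 was at 3.16 in mammary and -1.49 in lung tumor 323, and at 1.02 in mammary and 1.31 in lung tumor 307. Ifi44 was at 0.57 and -2.53 in pair 323, and at -1.49 and 0.79 in pair 307. The mean of the list was 2.04, 0.97 and 2.18 in mammary tumors 323, 307 and 594 and -0.33 and 1.85 in lung tumors 323 and 307, so that lung tumor 323 stood below all 4 others. Over the groups the list ran from Gbp2 (0.78) to Ifit1 (-2.40), with a median of -1.11. All 18 genes were well above background on all 5 arrays.

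**Figure D4:**
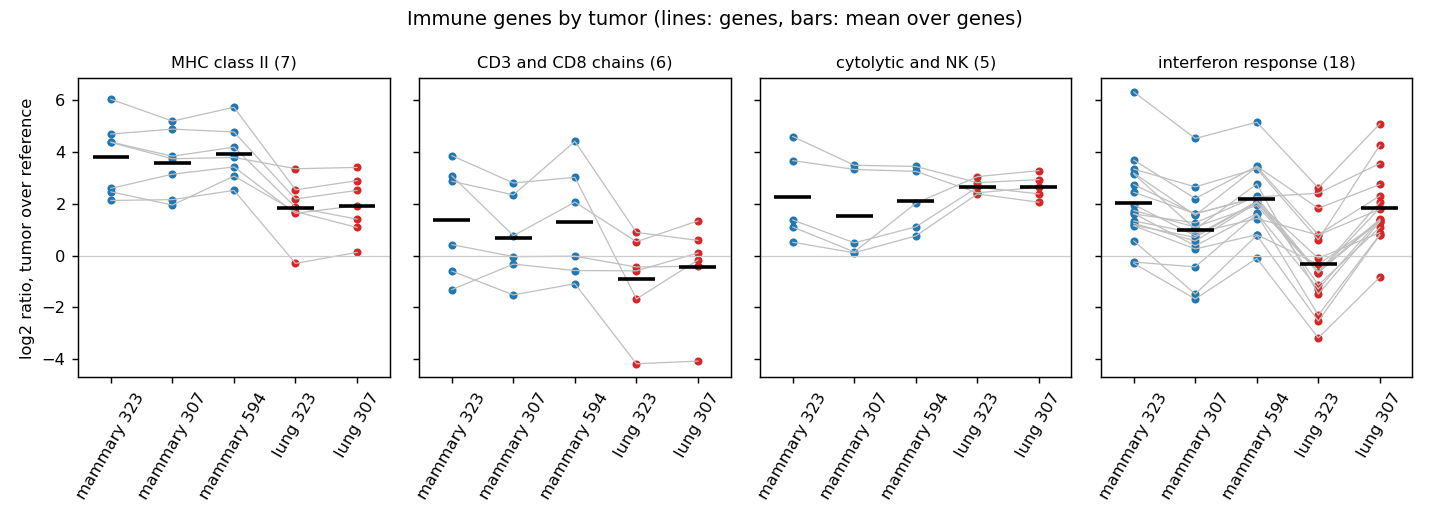
Log2 ratio of tumor over reference by tumor for 4 groups of immune genes, with a grey line per gene and a black bar at the mean over genes. The MHC class II mean is 3.56 to 3.93 in the mammary tumors and 1.86 and 1.91 in the lung tumors, and the interferon mean is lowest in lung tumor 323, at -0.33.

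Growth and metabolism differed less. The 19 proliferation genes had a median of 0.13, with 0.89 in pair 323 (16 of 19 higher) and -0.09 in pair 307, and ran from Ccna2 (cyclin A2, 1.23) to Bub1 (-0.81). Hypoxia and glycolysis genes had a median of -0.32 (14 of 17 lower), with 0.36 in pair 323 and -1.19 in pair 307. Car9 (carbonic anhydrase IX), the lowest of the list at -1.51, was at -0.34, -0.30 and -0.65 against -2.06 and -1.83, and Eno1 was the highest at 0.47. With the scan batch term the proliferation median was -0.39, with 14 of 19 lower, and the hypoxia and glycolysis median was -0.94. The study named 11 genes for sarcomatoid carcinoma against adenocarcinoma, a comparison that includes these 5 arrays and so is not independent. Of them 3 were past 1 in both pairs, namely Plau (urokinase, 2.46 and 1.40), Arsj (1.22 and 1.76) and S100a4 (1.33 and 3.39). Krt18, Epcam and Dsp were past -1 in both. Over all probes 3.96% were past 1 and 4.36% past -1 in both pairs. S100a4 overlapped between the groups. Of the others, the study reported Loxl2, Zeb2, Itgam and Mrc1 as higher and Bmp7 as lower in the sarcomatoid tumors. Here those genes differed by 0.48, -0.50, -0.33, -1.15 and -1.08, in that order. The median over the 11 was -0.50, with 7 lower, and 1.24 with the scan batch term.

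**Figure D5:**
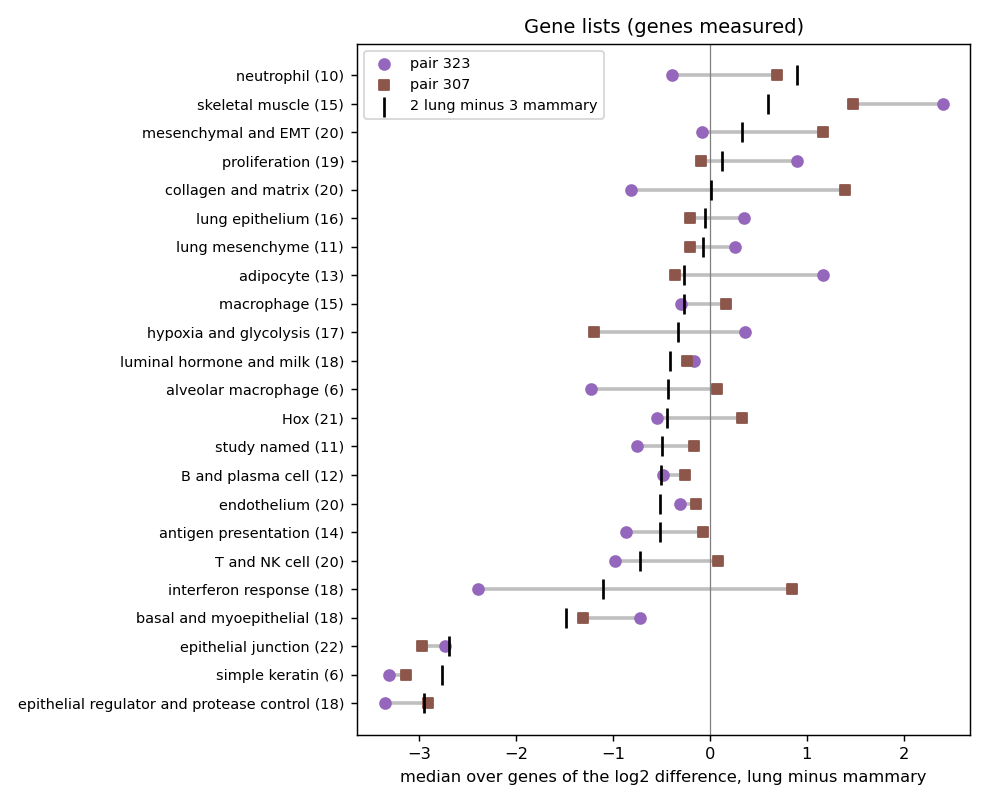
Median over genes of the lung minus mammary log2 difference for 23 gene lists, within pair 323 (circles), within pair 307 (squares) and over 2 lung and 3 mammary tumors (bars), with the number of genes measured in brackets. The 3 epithelial lists lie between -3.35 and -2.69 by all 3 measures, whereas the interferon list lies at -2.39 in pair 323 and 0.85 in pair 307.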

How the data were processed

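RNA of 10 mouse tumors had been hybridised to 2-colour Agilent mouse arrays, 1 array per tumor. The authors deposited scanner files with spot intensity in both channels and the Feature Extraction log10 ratio, and a normalized table of log2 ratios, for which the labels name limma without the steps. Each column of the table correlated best with its own array's red over green ratio (r between 0.868 and 0.926). From its 42515 rows 134 control rows were left out and spots averaged, leaving 40196 probes, of which 32156 were named through RefSeq (GRCm38.p6) and 8040 kept the name in the file. Clone names were counted but not named.

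A linear model with 3 groups over all 10 arrays was fitted with limma 3.58.1 (R 4.3.3), lung minus mammary sarcomatoid, two-sided, with Benjamini-Hochberg adjustment over all probes and a threshold of 0.05. The script was tested on simulated data. Pair differences had no test. Named genes were those called, the 8 in each direction with the largest smaller-of-2 pair difference among probes whose groups did not overlap and whose brighter group was well above background, the 4 in each order that moved oppositely, and in each list the extremes and cell type markers. Some genes that the rule names are not reported here. Other members of lists were named after their values were seen. A gene on a list was represented by its probe with the highest mean signal, over 360 of 364 list genes. Members and lists were chosen with earlier results of these data known. Tumor numbers pair the samples by origin, since by the methods each lung tumor came from a cell line of a primary tumor and the labels give both the same number. The lung difference 323 minus 307 correlated with the mammary one at r = 0.112 over probes. P-values measure the spread between these arrays only, and their number limits the precision. The alternatives to the fit were 20 in number, among them normexp (offset 50) with loess on the scanner files.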

Additional observations from a re-analysis of the deposited data

Results flagged for a closer look

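The interferon response list differed between the pairs: its median was -2.39 in pair 323 and 0.85 in pair 307, with all 18 genes below 0 in the first and 17 of 18 above 0 in the second. Each pair is 1 lung and 1 mammary array, so the difference between the pairs was not tested.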

How the results depend on the processing

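The 10 calls became 2 with scanner ratios after loess, 3 after median centring of scanner ratios, 6 after median centring of the deposited columns, and 0 with the 5 sarcomatoid arrays alone, with scan batch as a term, or with the tumor number as a fixed replicate block over 2 pairs. Unadjusted p was below 0.05 for 5664, 2589 and 5336 probes in the last 3 (limma). Leaving out each array gave 0 to 84 calls: 0 without mammary 323, mammary 307 or adenocarcinoma 17, 1 without mammary 594, adenocarcinoma 105 or 85, 5 without either lung tumor, and 84 without adenocarcinoma 470. The slide block gave 9 calls, the random replicate block 13, and the filter on dim probes and the trended fit 10 each. Probes past 1 higher in both pairs, 1591, became 381 after loess, 479 after median centring of scanner ratios, 180 past 2 and 714 when also past 1 from tumor 594, and the 1753 lower became 555, 592, 339 and 913. The cause was not tested.

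Reversals of sign occurred in 17 of 600 values of named genes, all among those that moved oppositely in the pairs. After loess and median centring of scanner ratios Clca3a1 was at 0.40 and 0.45 and Col8a2 at 0.37 and 0.29. With the batch term Adipoq was at 0.83, Fndc1 at 0.63 and Col8a2 at 0.50, and Col8a2 was at 0.50 with the fixed replicate block. Leaving out each array moved Clca3a1 from -3.22 to 2.07, Cfd from -4.38 to 0.58, Ngfr from -3.65 to 1.97, Fndc1 from -3.93 to 3.15, Col11a1 from -2.55 to 3.13 and Col8a2 from -3.97 to 3.51. Of 200 values of called probes, 71 kept the call and 129 lost it. List medians had the other sign in 56 of 299 values, in 17 of 23 lists, counting the batch term without adenocarcinoma 105 or 470, which was added after the data were seen. Signal near background limits the ratios of dim probes.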
